A study of Rattus norvegicus with 33 samples.

Results

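The genes described here are 5 matrix metalloproteinases (Mmp2, Mmp3, Mmp9, Mmp13 and Mmp14), the related protease Adamts1, and the inhibitors Timp1, Timp2 and Timp3. They were chosen by name, with earlier results of these data known. Each was taken from the row of the expression table that carries its symbol alone. All 9 of 9 were found, each with 1 row, among 14506 genes with such a row. Expression was measured in soleus of female Wistar rats, with 1 array for each of 33 animals in 11 groups of 3. In the SCI groups the spinal cord was cut at 9 weeks of age, and 14 weeks later the left gastrocnemius tendon was cut in surgery for a stimulator. SCI rats had that surgery without a stimulator and were killed 21 days after it. SCI-ES rats received electrical stimulation for 1 hour per day, begun 16 weeks after transection, and were killed at 1, 3 or 7 days. Sham-SCI rats had a laminectomy at the same age, 9 weeks, and no gastrocnemius or stimulator surgery is described for them. SCI against Sham-SCI therefore combines transection with tenotomy and stimulator surgery. GA rats, 22 to 23 weeks old and with an intact cord, had the gastrocnemius tendon cut, and Sham-GA rats had the same operation without the cut. Both were killed 1, 3 or 7 days later. All values are log2 expression values (RMA, made by the authors), and a difference of 1 on this scale is a doubling.

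Matrix metalloproteinases are zinc enzymes that cleave collagens, proteoglycans and other proteins outside the cell, and most are secreted as inactive precursors. Mmp14 is anchored in the cell membrane and, with Timp2 as a bridge, activates the precursor of Mmp2, a gelatinase made largely by connective tissue cells. Timps block the active enzymes, and in skeletal muscle the balance between the 2 families is known for its part in growth, repair and fibrosis.

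The slow muscle markers Myh7, Tnnt1 and Tnni1 ranked at the 99.9, 99.4 and 99.5 percentiles of all genes by mean value, as the label soleus implies. Replicate 2 of Sham-GA 3 days and replicate 1 of Sham-GA 1 day correlated least with their own group, with mean r of 0.9692 and 0.9710 over genes, against 0.978 or more for the other 31 arrays. Results that turn on them are given with and without them. A gene is called changed at an adjusted p (Benjamini-Hochberg, over all genes tested with limma) under 0.05 where the fold also reaches 1.5 in either direction. Arrays measure RNA of the whole muscle, so more cells of a type and more RNA per cell cannot be told apart. The number of arrays limits the precision.

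The gelatinase Mmp2 and its membrane-bound activator Mmp14 were higher in muscle of transected rats, which had also had hindlimb surgery, than in Sham-SCI. Transection and that surgery cannot be told apart here. In Sham-GA 7 days, with an intact cord and an uncut tendon, the means were 12.58 for Mmp2 and 10.83 for Mmp14, above those of SCI (11.96 and 9.49). These means come from separate experiments, at other ages and times since surgery, and were not tested against each other. Mmp2 was 11.61, 12.00 and 12.28 in SCI arrays and 10.07, 10.26 and 10.48 in Sham-SCI arrays. Mmp14 was 9.07, 9.40 and 9.99 in SCI arrays and 7.64, 7.59 and 7.27 in Sham-SCI arrays. For both genes every SCI array lay above every Sham-SCI array, by more than the spread within either group. The log2 fold change was 1.69 for Mmp2 (SE 0.359, adjusted p = 0.061) and 1.99 for Mmp14 (SE 0.442, adjusted p = 0.07), so neither was called in this comparison.

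All 12 arrays of transected rats, with or without ES, lay above the 3 Sham-SCI arrays for Mmp2, Mmp14, Timp2 and Mmp9. The share of all genes for which these 12 arrays did so was not counted. When these 12 were set against Sham-SCI, a comparison added after the values were seen, Mmp2 rose 2.89-fold (1.53 on the log2 scale, SE 0.284, adjusted p = 0.016). Mmp14 rose 3.73-fold (1.90 on the log2 scale, SE 0.349, adjusted p = 0.016). These were the 2 of 9 genes called, against a background of 1.68% of 14456 genes called. Both calls were lost without any 1 of the 3 Sham-SCI arrays (adjusted p up to 0.094 for Mmp2 and 0.12 for Mmp14). The comparison uses the Sham-SCI arrays of the one above and is not independent of it. It too combines transection with tenotomy and stimulator surgery.

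Timp2, the inhibitor that docks proMmp2 to Mmp14, was 10.81, 11.46 and 11.47 in SCI arrays and 10.50, 9.87 and 10.40 in Sham-SCI arrays. Its groups did not overlap, and its log2 fold change of 0.99 (SE 0.335, adjusted p = 0.19) did not pass the test. Mmp13, a collagenase that cuts fibrillar collagen, was 4.28, 5.80 and 8.40 in SCI arrays and 4.29, 4.35 and 4.20 in Sham-SCI arrays. A single SCI array carried most of this difference, and the groups overlapped (log2 fold change 1.88, SE 0.961, adjusted p = 0.4, and 0.76 without SCI replicate 3). Mmp9, the gelatinase of leukocytes and osteoclasts, was 6.54, 6.05 and 8.02 in SCI arrays and 5.69, 5.72 and 5.14 in Sham-SCI arrays, again with 1 high SCI array. For Mmp3 (stromelysin), Timp1, Timp3 and Adamts1 the groups overlapped, with log2 fold changes between -0.05 and 0.48.

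Across the 9 genes, 4 had all SCI arrays above all Sham-SCI arrays, against 9.14% of all genes. In SCI against Sham-SCI limma called 0 of the 9, where 58 of 14456 genes (0.401%) were called, and 3 of the 9 had an unadjusted p under 0.05, against 14.6% of all genes. The test across groups named in the study's methods, without adjustment, called 2 of the 9 and 5.09% of the 7228 genes it was run on. Its p covers all 5 spinal groups at once, and only the fold minimum is specific to SCI against Sham-SCI. The median of the 9 changes was 0.99, and that of all genes was -0.02. The 9 were chosen with earlier results of these data known, so these shares and medians are descriptions and do not test the 9 as a set.

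**Figure D1:**
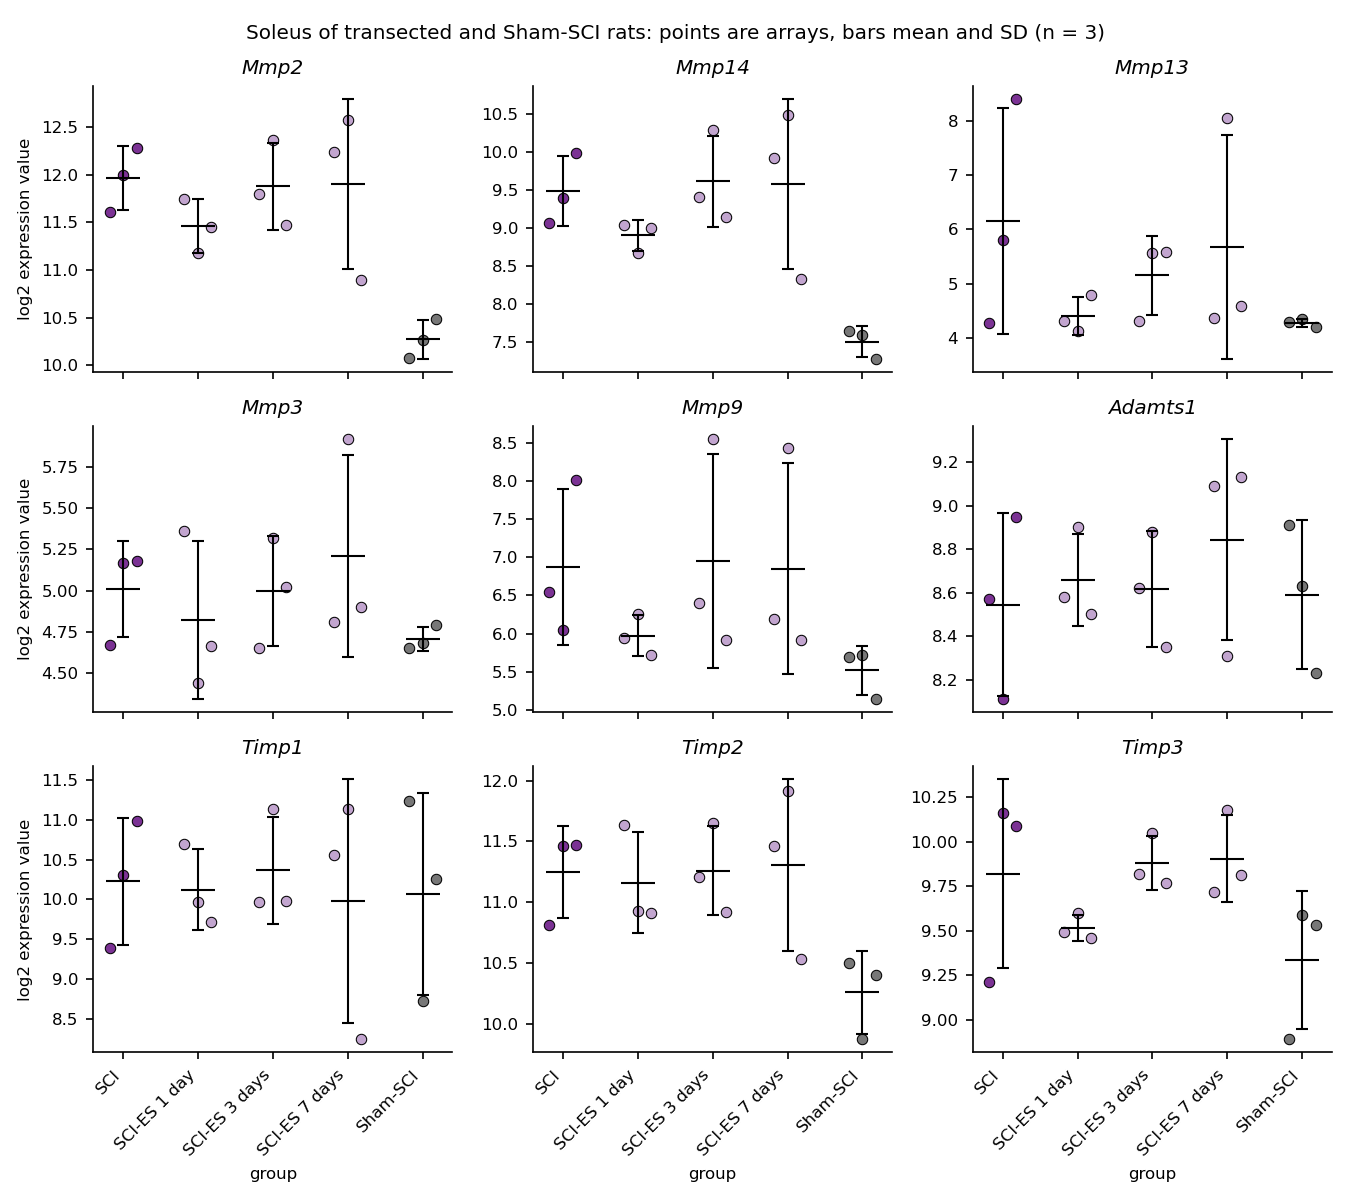
Log2 expression values (y axis) of the 9 genes in SCI, SCI-ES 1, 3 and 7 days and Sham-SCI (x axis), with each array as a point and bars for the mean and SD of 3. Mmp2, Mmp14 and Timp2 lie higher in all 12 arrays of transected rats than in the 3 Sham-SCI arrays, while Timp1 and Adamts1 overlap throughout.

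Other genes of the family were measured alongside, from lists written for this purpose with earlier results of these data known. Among 10 other ADAMTS proteases, the 12 arrays of transected rats were called higher for Adamts12, which cleaves cartilage matrix proteins (log2 fold change 1.33, SE 0.263, adjusted p = 0.021), and Adamts2, a procollagen processing enzyme (1.31, SE 0.293, adjusted p = 0.035). Of 16 other matrix metalloproteinases, Mmp16, another membrane-bound enzyme, was the 1 called (0.68, SE 0.163, adjusted p = 0.044). Among 4 other inhibitors none was called, with values between -0.07 (Timp4) and 0.54 (A2m). Substrates of these enzymes lay higher too. All 16 measured substrates were above 0, with a median of 0.96, and 4 were called (Col3a1 at 2.02, Col1a1 at 1.90, Bgn at 1.53 and Sparc at 1.06).

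Fibroblast markers lay on the same side: 10 of 11 were above 0 in transected rats (median 0.97), and Fap, Dpt and Scara5 were called (1.44, 0.97 and 0.96). The summed linear level of the 11 markers was 16538 to 21586 in SCI arrays and 9098 to 12508 in Sham-SCI arrays. The lowest of these markers by mean value, Tcf21, averaged 5.09 over the 33 arrays. The part of fibroblast content in the Mmp2 and Mmp14 values was not tested.

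Electrical stimulation of the paralyzed soleus changed none of the 9 genes past the threshold. After 1 day Mmp14 was 9.04, 8.67 and 9.00 in SCI-ES arrays, against 9.07, 9.40 and 9.99 in SCI arrays. It was the 1 of 9 with all stimulated arrays below all SCI arrays (5.36% of all genes), but the lowest SCI and the highest SCI-ES array were nearly level (log2 fold change -0.58, SE 0.442, adjusted p = 0.82). Mmp13 was 4.31, 4.13 and 4.80 in SCI-ES 1 day arrays, at or near the lowest of the SCI arrays, and the groups overlapped (log2 fold change -1.75, SE 0.961, adjusted p = 0.71). Without SCI replicate 3 the value was -0.63. At 3 days Mmp13 was 4.32, 5.56 and 5.59, and at 7 days 4.38, 8.05 and 4.60. Its interval against SCI after 1 day, -3.82 to 0.32, covers both no change and a large fall. Among 16 other matrix metalloproteinases the values after 1 day ran from -3.16 for Mmp12, the macrophage elastase (SE 1.21, adjusted p = 0.67), to 1.23 for Mmp8, the neutrophil collagenase (SE 0.321, adjusted p = 0.55), and none was called. All 16 substrates lay below 0 after 1 day (median -0.42), and none was called.

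The 95% intervals of Mmp2 against SCI were -1.28 to 0.27 at 1 day, -0.86 to 0.69 at 3 days and -0.83 to 0.72 at 7 days. Those of Timp2 were -0.81 to 0.64, -0.71 to 0.73 and -0.67 to 0.78, so falls of 1.5 fold could not be told from none. Limma called 0 of 9 at each time, where 0% of all genes were called at 1, 3 and 7 days and no member had an unadjusted p under 0.05. Without SCI-ES 1 day replicate 2, 27 genes were called at 1 day, none of them among the 9. Between SCI-ES 7 days and SCI-ES 1 day 0 of 9 (0% of all genes) were called, and without SCI-ES 1 day replicate 2 it was 99 genes and again 0 of the 9. There 1 of 9, Timp3, had no overlap between groups (6.52% of all genes), at 9.72, 10.18 and 9.81 after 7 days and 9.49, 9.60 and 9.46 after 1 day. SCI rats were killed 21 days after the tenotomy, whereas SCI-ES 1 and 3 days rats were killed sooner after it, and time since that surgery cannot be told apart from ES.

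In rats with an intact cord, Mmp2, Mmp14, Timp2 and Timp3 rose over the days after surgery, with or without the cut. Mmp2 was 10.24, 10.51 and 10.32 at 1 day of GA, 12.19, 11.08 and 11.09 at 3 days and 12.63, 12.48 and 13.01 at 7 days. In Sham-GA it was 10.46, 10.24 and 10.50 at 1 day, 10.23, 11.47 and 10.63 at 3 days and 12.11, 12.64 and 12.99 at 7 days. At 7 days every array of either arm stood above every array of 1 day. Between 7 days and 1 day, comparisons added after the values were seen, Mmp2 rose 5.08-fold in GA (2.35 on the log2 scale, SE 0.319, adjusted p = 0.00032) and 4.54-fold in Sham-GA (2.18, SE 0.319, adjusted p = 0.0011).

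Mmp14, the activator of Mmp2, moved likewise. It was 8.51, 7.93 and 7.94 at 1 day of GA, 10.05, 8.80 and 9.49 at 3 days and 10.91, 10.76 and 11.20 at 7 days. In Sham-GA it was 8.53, 7.38 and 7.92 at 1 day, 7.56, 9.45 and 7.93 at 3 days and 10.43, 10.70 and 11.38 at 7 days. In Sham-GA the 3-day arrays stayed within or near the 1-day range except for replicate 2, while in GA all 3 had left it. From 1 day the rise at 7 days was 7.13-fold in GA (2.83 on the log2 scale, SE 0.436, adjusted p = 0.00071) and 7.40-fold in Sham-GA (2.89, SE 0.436, adjusted p = 0.0013).

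Timp2 was 10.55, 10.65 and 10.48 at 1 day of GA, 11.60, 11.38 and 11.32 at 3 days and 12.02, 12.01 and 12.29 at 7 days. In Sham-GA it was 10.93, 10.33 and 10.57 at 1 day, 10.31, 11.32 and 10.64 at 3 days and 11.85, 12.00 and 12.21 at 7 days. It rose 2.93-fold by 7 days in GA (1.55 on the log2 scale, SE 0.208, adjusted p = 0.0003) and 2.66-fold in Sham-GA (1.41, SE 0.208, adjusted p = 0.0012). It was also the 1 of 9 genes called at 3 days against 1 day of GA (log2 fold change 0.87, SE 0.208, adjusted p = 0.031), where 3.09% of all genes were called. That call ended without GA 1 day replicate 1 or 3 or any 1 GA 3 days array (adjusted p up to 0.14), with all 33 arrays in 1 fit (0.069) and with the replicate block (0.054).

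Timp3, an inhibitor that binds to the matrix, ran from 8.36 to 8.72 at 1 day of GA, from 8.53 to 9.30 at 3 days and from 9.72 to 10.10 at 7 days. In Sham-GA it ran from 8.55 to 9.26, from 8.97 to 9.34 and from 10.01 to 10.13 on the same days. By 7 days it rose 2.56-fold in GA (1.35 on the log2 scale, SE 0.209, adjusted p = 0.00072) and 2.29-fold in Sham-GA (1.20, SE 0.209, adjusted p = 0.003). In both arms Mmp2, Mmp14, Timp2 and Timp3 kept these calls without any 1 array, with adjusted p up to 0.018, and under every other setting tried, with adjusted p up to 0.023.

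In all, 5 of the 9 genes were called at 7 days against 1 day of GA, all upward, where 8.6% of all genes were called. In Sham-GA 4 were called upward and Adamts1 downward, where 6.57% of all genes were called. At 3 days against 1 day of Sham-GA limma called 0 of 9 (0% of all genes), and none had an unadjusted p under 0.05. The GA effect at 7 days minus that at 1 day was tested as well, with 0 of 9 called (0% of all genes) and 1 of 9, Mmp13, at an unadjusted p under 0.05 (8.26% of all genes). For Mmp2, Mmp14, Timp2 and Timp3 that difference lay between -0.05 and 0.16, with SEs of 0.294 to 0.617. Whether the arrays of a day were processed together is not given in the sources used here.

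**Figure D2:**
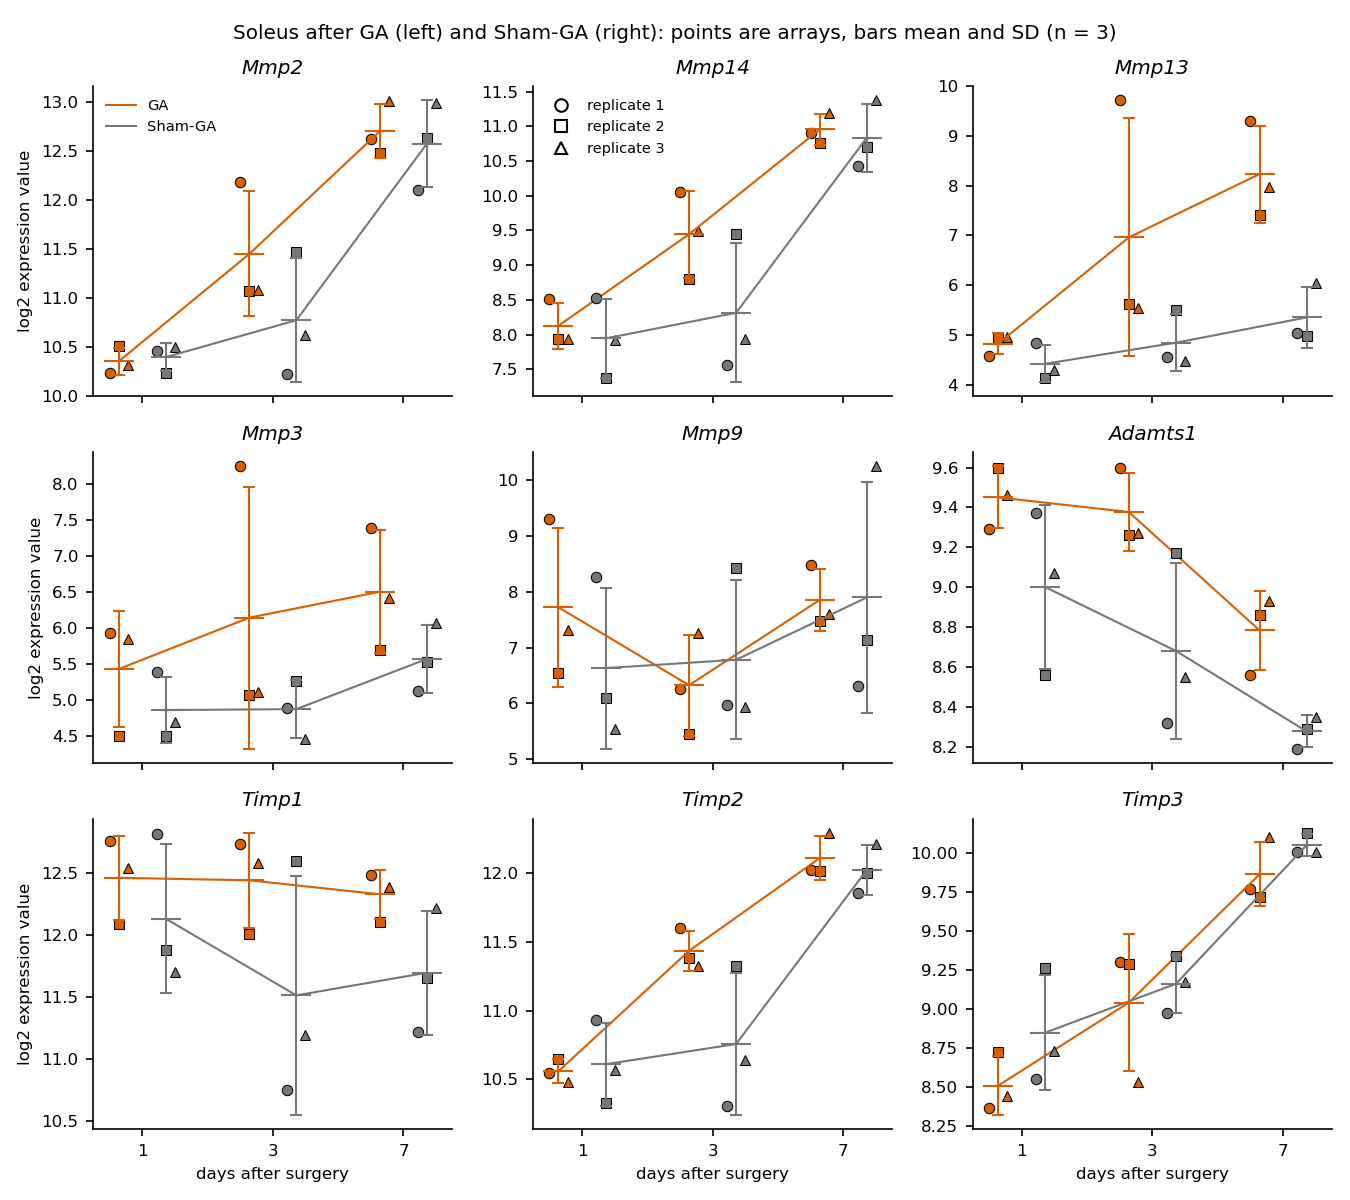
Log2 expression values (y axis) of the 9 genes in GA (left of each pair) and Sham-GA (right) on days 1, 3 and 7 (x axis), with each array as a point shaped by replicate, and bars for the mean and SD of 3. Mmp2, Mmp14, Timp2 and Timp3 climb in both arms, Mmp13 is far higher in GA than in Sham-GA at 7 days, and Sham-GA 3 days replicate 2 (grey square) lies above its group for Mmp2, Mmp14, Timp1 and Timp2.

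Other members of the family moved on the same days. Of 16 other matrix metalloproteinases 3 were called at 7 days against 1 day of GA, all upward: Mmp23 (2.11), Mmp16 (1.39) and Mmp11 (0.99), an enzyme of stromal cells. In Sham-GA Mmp23 (1.91), Mmp11 (1.27) and Mmp16 (1.14) were called. Of 10 other ADAMTS proteases 5 were called upward in GA and 6 in Sham-GA, with Adamts12 (2.62 in GA and 2.77 in Sham-GA) and Adamts2 (1.96 and 2.23) in front. Among 5 ADAM sheddases Adam23 was called in GA (1.25), and 0 of 4 other inhibitors were called in either arm.

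Of 16 substrates 11 were called upward in each arm, with medians of 1.93 in GA and 1.46 in Sham-GA, where the medians of all genes were -0.05 and -0.03. Col1a1, which encodes a chain of type I collagen, was 3.09 higher at 7 days than at 1 day in GA and 2.89 higher in Sham-GA. Of 10 genes of plasmin generation and proprotein cleavage, which activate metalloproteinase precursors, Serpine2 was called in GA (1.38) and Plat in Sham-GA (1.40). Among 19 cytokines and AP-1 factors known to induce metalloproteinases, 5 were called lower at 7 days of GA: Fos (-2.25), Fosl1 (-2.05), Tnf (-0.97), Junb (-0.89) and Jun (-0.84). In Sham-GA 2 were called, both higher (Tgfb3 at 0.81 and Jund at 0.65). Of 6 cell surface partners 0 were called in either arm.

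Fibroblast markers rose with them, 6 of 11 being called upward in each arm, with Thy1 in front (3.86 in GA and 3.71 in Sham-GA). Their summed linear level was 27189 to 32408 at 7 days and 11021 to 15822 at 1 day of GA. In Sham-GA it was 26432 to 34176 at 7 days and 12915 to 16057 at 1 day. The part of fibroblast content in the rise of Mmp2, Mmp14, Timp2 and Timp3 was not tested.

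Of the 9 genes, Mmp13 had the widest gap between GA and Sham-GA at 7 days. It was 4.58, 4.94 and 4.96 at 1 day of GA, 9.72, 5.62 and 5.54 at 3 days and 9.31, 7.41 and 7.98 at 7 days. In Sham-GA it was 4.84, 4.13 and 4.29 at 1 day, 4.55, 5.51 and 4.47 at 3 days and 5.03, 4.97 and 6.05 at 7 days. At 7 days the 3 GA arrays lay well above the 3 Sham-GA arrays, and at 3 days replicate 1 of GA stood alone while the other 2 were level with the highest Sham-GA array. The log2 fold change of GA over Sham-GA was 0.40 (SE 0.813) at 1 day, 2.12 (SE 0.813, adjusted p = 0.29) at 3 days and 2.89 (SE 0.813, adjusted p = 1) at 7 days. None passed the test across all genes. Without GA 3 days replicate 1 the value at 3 days was 0.74, below that of Mmp14 (0.83) and Timp1 (0.78). Its mean over the 3 days was 1.80 (SE 0.47, adjusted p = 0.17), and the effect at 7 days exceeded that at 1 day by 2.48 (SE 1.15, adjusted p = 0.6).

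Within GA, Mmp13 rose 10.6-fold between 1 and 7 days (3.41 on the log2 scale, SE 0.813, adjusted p = 0.012), a call that was lost without GA 7 days replicate 1 (adjusted p = 0.06). In Sham-GA the corresponding value was 0.92 (SE 0.813, adjusted p = 0.54). Mmp13 was also high in SCI replicate 3 (8.40) and SCI-ES 7 days replicate 2 (8.05), where Mmp3 was 5.18 and 5.92. Mmp3, which can cleave the precursor of Mmp13, was 8.25 and 7.40 in the arrays where Mmp13 was highest, replicate 1 of GA 3 days and of GA 7 days, and between 4.44 and 6.43 in the other 31. Its GA effect averaged 0.92 over the days (SE 0.393, adjusted p = 0.23).

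Mmp13 and Mmp3 lie on rat chromosome 8 in a run of metalloproteinase genes, with Mmp12 and Mmp1b between them (gene order in RefSeq, assembly GRCr8). Promoter sequences were found for 6 of the 9 genes, by gene ID: Mmp3, Mmp13, Timp1, Timp2, Timp3 and Adamts1. The 250 bases before the start are shown for these 2 neighbours, which were both highest in replicate 1 of GA 3 days and of GA 7 days, and for Timp2, which moved on the same days in both arms (RefSeq, GRCr8, 5′ to 3′). Mmp13 is at chr8:12782579-12782828 on the plus strand, Mmp3 at chr8:12925031-12925280 on the plus strand and Timp2 at chr10:104089215-104089464 on the minus strand. Capitals mark matches on either strand to TGANTCA (the AP-1 motif), TATAAA (the TATA box) and GGGCGG (the GC box), none of which overlap each other.
Mmp13: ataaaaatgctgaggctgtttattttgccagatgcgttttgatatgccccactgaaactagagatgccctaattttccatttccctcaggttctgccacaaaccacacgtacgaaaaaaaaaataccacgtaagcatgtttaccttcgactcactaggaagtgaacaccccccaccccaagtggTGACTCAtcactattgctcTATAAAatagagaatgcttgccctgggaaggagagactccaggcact
Mmp3: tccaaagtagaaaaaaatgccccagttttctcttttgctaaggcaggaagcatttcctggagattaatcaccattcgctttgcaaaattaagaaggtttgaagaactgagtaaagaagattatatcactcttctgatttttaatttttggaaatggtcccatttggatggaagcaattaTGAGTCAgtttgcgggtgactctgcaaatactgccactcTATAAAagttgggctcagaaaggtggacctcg
Timp2: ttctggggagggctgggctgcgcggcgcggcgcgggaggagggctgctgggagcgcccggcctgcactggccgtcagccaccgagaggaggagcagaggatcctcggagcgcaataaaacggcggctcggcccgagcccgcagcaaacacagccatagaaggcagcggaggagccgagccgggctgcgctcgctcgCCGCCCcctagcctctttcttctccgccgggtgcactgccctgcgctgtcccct
The Mmp13 window held an AP-1 match starting 66 bases before the start and a TATA match 47 bases before it. The Mmp3 window held them at 71 and 32 bases before the start. Neither motif was matched in the windows of Timp1, Timp2 and Timp3, each of which held at least 1 GC box. The Adamts1 window held a TATA match and 2 GC boxes. Over 33469 promoters of the same length, 6.3% held the AP-1 letters, 12.9% TATAAA and 30.5% GGGCGG. A match is a description of the letters only.

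Adamts1, a protease that cleaves the proteoglycans versican and aggrecan, lay somewhat higher in GA than in Sham-GA. At 3 days it was 9.60, 9.26 and 9.27 in GA arrays and 8.32, 9.17 and 8.55 in Sham-GA arrays. At 7 days it was 8.56, 8.86 and 8.93 in GA arrays and 8.19, 8.29 and 8.35 in Sham-GA arrays. GA arrays lay above all Sham-GA arrays on both days, and the mean GA effect over the 3 days was 0.55 (SE 0.124, adjusted p = 0.17). Levels were lower at 7 days than at 1 day in both arms. The fall was 0.73 on the log2 scale in Sham-GA (log2 fold change -0.73, SE 0.214, adjusted p = 0.042), a call lost without any 1 Sham-GA 7 days array or without Sham-GA 1 day replicate 1 or 3, with adjusted p up to 0.15. It was also lost after a second quantile normalization (0.052), with the 2 groups alone (0.095), with the replicate block (0.068) and without both Sham-GA arrays that stand apart. In GA the value was -0.66 (SE 0.214, adjusted p = 0.055), called under 5 other settings (adjusted p = 0.0086 with arrays centred on the median).

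Timp1, the inducible and soluble inhibitor, was 12.76, 12.09 and 12.54 at 1 day of GA, 12.74, 12.01 and 12.58 at 3 days and 12.49, 12.11 and 12.39 at 7 days. In Sham-GA it was 12.82, 11.88 and 11.70 at 1 day, 10.75, 12.60 and 11.19 at 3 days and 11.22, 11.65 and 12.22 at 7 days. All 9 GA arrays lay between 12.01 and 12.76, whereas Sham-GA arrays spread from 10.75 to 12.82. The mean GA effect was 0.63 (SE 0.236, adjusted p = 0.2). In the 15 spinal arrays Timp1 lay between 8.24 and 11.23, and no group stood apart.

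At 3 days the comparison of GA with Sham-GA turned on 1 array. With all arrays limma called 0 of 9 (0% of all genes), 5 of 9 had an unadjusted p under 0.05 (16.5% of all genes), and the test in the study's methods, unadjusted, called 3 (8.75% of 7226 genes). That test gives 1 p per gene for GA against Sham-GA over all days together, and only the fold minimum is specific to 3 days. Without Sham-GA 3 days replicate 2, in which macrophage markers summed to 19877 against 6219 and 9365 in the other 2 Sham-GA arrays, 5 of 9 were called. These were Mmp14 (log2 fold change 1.70, SE 0.372, adjusted p = 0.023), Timp1 (1.48, SE 0.342, adjusted p = 0.025), Mmp2 (1.02, SE 0.304, adjusted p = 0.046), Timp2 (0.96, SE 0.173, adjusted p = 0.016) and Adamts1 (0.94, SE 0.2, adjusted p = 0.021). In that fit 12 of 16 substrates were called upward, with Mmp19 and Mmp23 of 16 other matrix metalloproteinases, A2m and Tfpi2 of 4 other inhibitors, 7 of 12 macrophage markers and 5 of 11 fibroblast markers. Macrophage markers summed to 16256 to 22301 in GA 3 days arrays. Fibroblast markers summed to 17690 to 23464 in GA 3 days arrays, and to 20467 in the array left out against 12826 and 15276 in the other 2 Sham-GA arrays. The part of either cell type in these calls was not tested. The Sham-GA group then held 2 arrays, assumed to vary like the others, and 1286 of 14450 genes (8.9%) were called. With all arrays the changes were 1.13 (Mmp14), 0.93 (Timp1), 0.68 (Mmp2 and Timp2) and 0.70 (Adamts1). Of the 9 genes 3 (Mmp13, Timp2 and Adamts1) had all GA arrays above all Sham-GA arrays, against 5.86% of all genes.

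At 1 day 0 of 9 were called, where 8 of 14451 genes (0.0554%) were called, and none had an unadjusted p under 0.05. At 7 days 0 of 9 were called (0% of all genes), 2 had an unadjusted p under 0.05 (2.63% of all genes), and the test in the study's methods, unadjusted, called 2 (2.03% of its genes). The p of that test is again the one over all days, so it is not a separate test of 7 days. There 2 of 9, Mmp13 and Adamts1, had all GA arrays above all Sham-GA arrays, against 4.86% of all genes. For the mean GA effect 0 of 9 were called (0% of all genes), with 4 at an unadjusted p under 0.05 (19.3% of all genes) and 2 called by the methods' test (3.97% of its genes). Without Sham-GA 3 days replicate 2 it was 4 of 9 (Mmp13, Mmp14, Timp1 and Adamts1), where 3.41% of all genes were called, and without Sham-GA 1 day replicate 1 it was 2 (Mmp13 and Adamts1), where 2.38% were called.

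**Figure D3:**
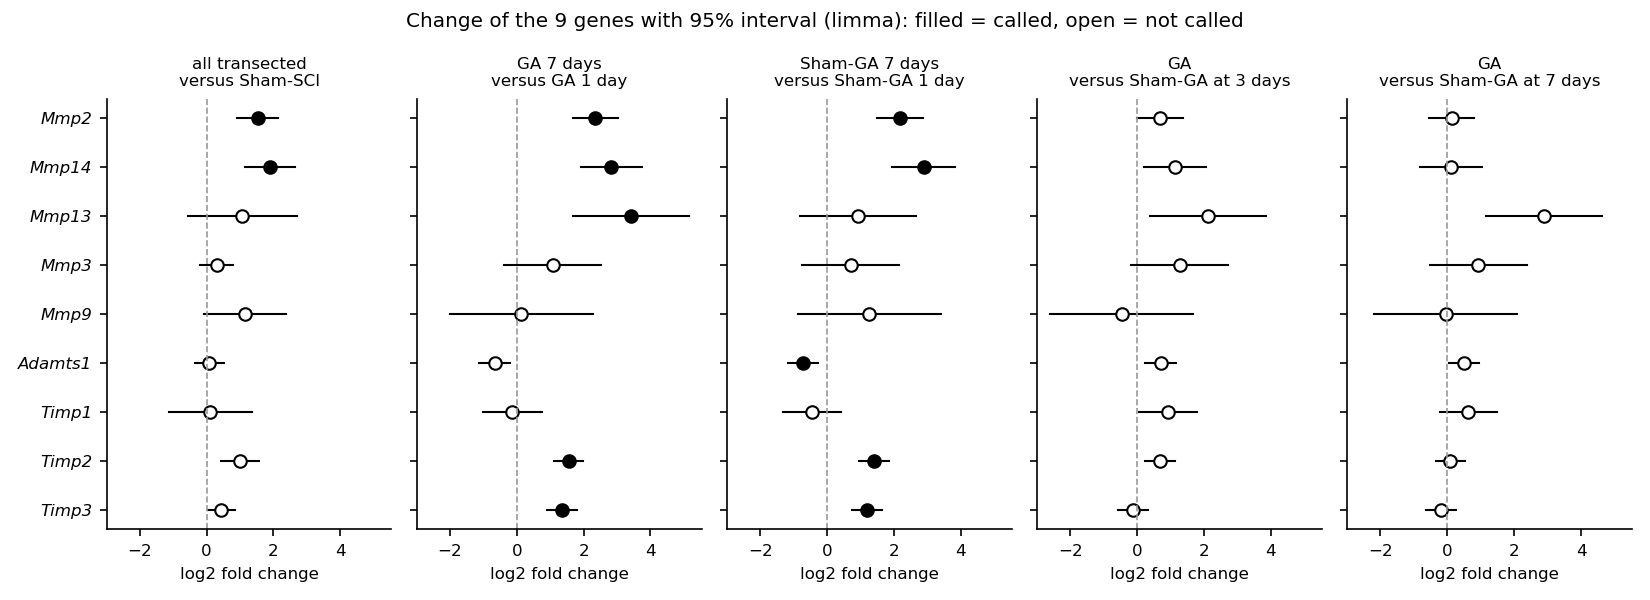
Log2 fold changes (x axis) of the 9 genes (rows) with 95% intervals from limma in 5 comparisons, filled where called. Mmp2, Mmp14, Timp2 and Timp3 are called at 7 days against 1 day in GA and in Sham-GA, and no gene is called in GA against Sham-GA at 3 or 7 days.

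Mmp9 varied widely between arrays of the same group. It reached 8 or more in 8 arrays, each of another group: GA 1 day (9.31), GA 7 days (8.49), Sham-GA 1 day (8.27), Sham-GA 3 days (8.43), Sham-GA 7 days (10.25), SCI (8.02), SCI-ES 3 days (8.55) and SCI-ES 7 days (8.44). In the other 25 arrays it lay between 5.14 and 7.61. Its SD within a group was up to 2.08, and 0 of the 18 comparisons called it.

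Mmp12, encoded next to Mmp13, was at 8 or more in all 8 of these arrays, between 8.38 and 11.68, and in 5 of the other 25. Genes of bone-resorbing cells, chosen after their values were seen, were high in part of them. Ctsk was at 8 or more in 6 of the 8 arrays and in 17 of the other 25. Atp6v0d2, a proton pump subunit of osteoclasts, was 8.46 in Sham-GA 7 days replicate 3, 7.56 in SCI-ES 3 days replicate 2 and 7.44 in SCI-ES 7 days replicate 2, against a median of 4.87 in the other 25. It went down to 4.87 within the 8 arrays and up to 6.47 within the 25. Acp5, an acid phosphatase of osteoclasts and macrophages, had medians of 7.76 in the 8 arrays and 6.81 in the 25, with overlapping ranges (6.77 to 8.57 and 6.43 to 7.87). S100a9, a neutrophil protein, was 9.68 in GA 1 day replicate 1 and 8.74 in Sham-GA 1 day replicate 1, and between 5.37 and 6.84 in the other 6.

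The neutrophil markers as a list, 10 genes, summed to 1214 to 3375 in GA 1 day arrays and 628 to 1859 in Sham-GA 1 day arrays, and no array of any other group exceeded 916. The 12 macrophage markers summed to 12254 to 17150 in GA 1 day arrays and to 7065, 7976 and 18201 in Sham-GA 1 day arrays. The 5 osteoblast markers summed to 271 to 611 over all groups. Their part in the Mmp9 values was not tested.

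**Figure D4:**
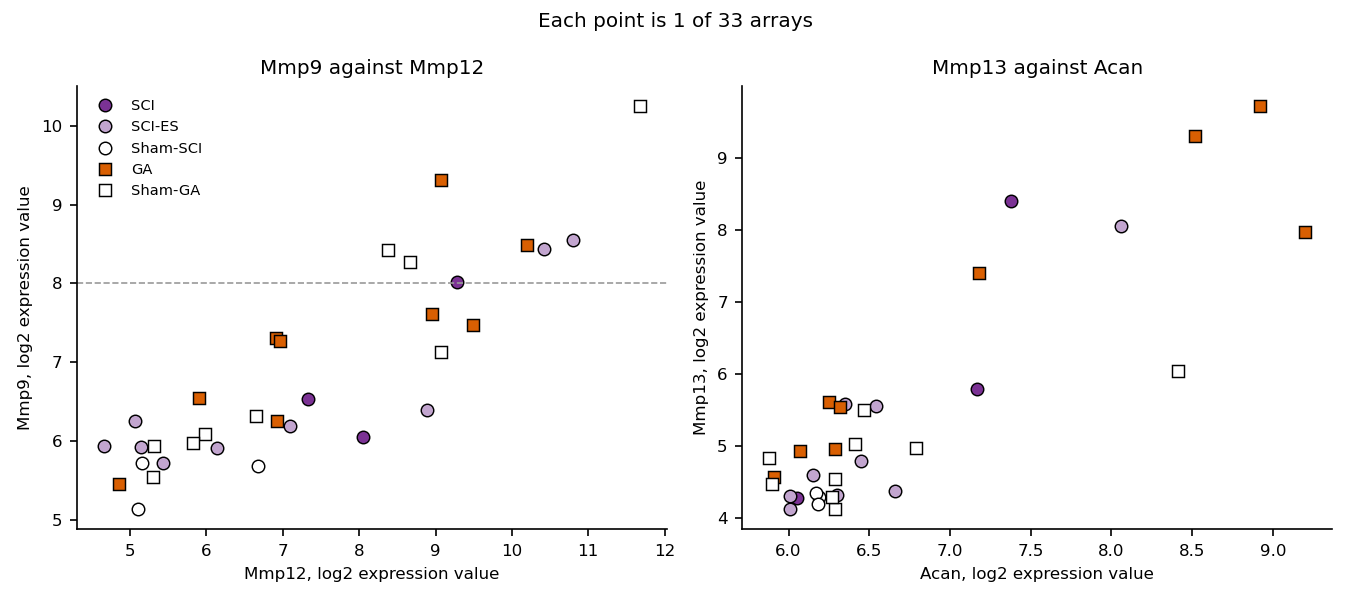
Each of the 33 arrays as a point, with Mmp9 against Mmp12 (left, line at 8) and Mmp13 against Acan (right), both axes in log2 expression values. The 8 arrays with Mmp9 at 8 or more all have Mmp12 above 8, and they come from SCI, SCI-ES, GA and Sham-GA groups.

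The effect of ES (against SCI) minus that of GA (against Sham-GA) was fitted at each time over all 33 arrays, to ask whether the 2 effects differed. SCI and SCI-ES rats had also had the gastrocnemius tendon cut, and the same 3 SCI arrays served at each time. The experiments also differed in age and in time since surgery, which cannot be told apart from the kind of exercise here. Limma called 0 of 9 at 1, 3 and 7 days, where 0.0554% of all genes were called at 1 day and 0% at 3 and 7 days. Mmp13 gave the widest differences, -3.12 at 3 days (SE 1.33, adjusted p = 0.48) and -3.37 at 7 days (SE 1.33, adjusted p = 1). With 1 array left out they ran from -4.06 to -1.74 at 3 days, smallest without GA 3 days replicate 1, and from -4.56 to -2.25 at 7 days, smallest without SCI replicate 3. Of the 9 it was the 1 with an unadjusted p under 0.05 on these days, and at 1 day there was none.

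Over the 11 group means, Mmp2, Mmp14 and Timp2 had the most similar patterns among the 9, with Pearson r of 0.99 between Mmp14 and Timp2, 0.98 between Mmp2 and Mmp14 and 0.96 between Mmp2 and Timp2. Mmp3 and Mmp13 followed at 0.88, and Adamts1 ran opposite to Timp3 at -0.78. These are descriptions of 11 means that share 1 normalization. Among 5961 genes with an SD of group means of at least 0.2, those most like Mmp2 were Zfp521 (0.992), Ctsk (0.991) and Adamts2 (0.984). Those most like Mmp14 were Cthrc1 (0.991), Numbl (0.990) and Timp2 (0.988). Timp2 was followed most closely by Ergic3 (0.991), Mmp14 and Cthrc1 (both 0.988), and Timp3 by Angptl1 (0.985), Nbl1 (0.979) and Aoc3 (0.977).

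Mmp13 was most like Acan (0.930), Csrp2 (0.916) and Ptprf (0.912). Acan, which encodes the cartilage proteoglycan aggrecan, was 8.52, 7.18 and 9.20 in GA 7 days arrays and 6.41, 6.79 and 8.41 in Sham-GA 7 days arrays. At 7 days against 1 day of GA it rose by 2.21 on the log2 scale (SE 0.641, adjusted p = 0.033). Tendon markers also rose between these days of GA, all 4 being called (Tnmd 3.80, Fmod 2.63, Comp 1.99, Scx 1.05). Their summed linear level was 2351 to 5389 at 7 days and 830 to 876 at 1 day of GA. In Sham-GA 0 of these 4 were called, and the sums were 1338 to 3826 at 7 days and 1253 to 1804 at 1 day. The sums of the arms overlapped at 7 days, and those of GA were the lower at 1 day. No gene was called in GA against Sham-GA at 7 days, or in the GA effect at 7 days minus that at 1 day. The part of tendon tissue in the Mmp13 values was not tested. Mmp3 was most like Slc17a9 (0.966), Rin2 (0.965) and Chst10 (0.957), Mmp9 like Slc7a11 (0.970), Ccl9 (0.945) and Rassf4 (0.915), Timp1 like Faim (0.989), Cybc1 (0.984) and Bst1 (0.981), and Adamts1 like Insig1 (0.954), Nabp1 (0.937) and Tars1 (0.922).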

How the data were processed

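RNA of soleus from 33 rats was measured on Affymetrix rat arrays. Per the study's methods, the authors made the deposited log2 values with the oligo package (baseline subtraction, then quantile normalization, then summaries by median polish; versions are not given in the sources used here). The table has 29214 rows, and 15310 of them, for 14506 genes, carry a single gene symbol and were used. Another 323 name several genes and 13581 name none. The row with the highest mean was taken for 527 genes with more than 1 row, none of them among the 9 described. Background correction cannot be redone from these values. Values near the low end may be compressed, which would understate folds of dim genes such as Mmp13 and Mmp3, but this was not examined.

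Limma 3.58.1 (R 4.3.3, lmFit and eBayes) was fitted with 1 mean per group to the 15 spinal arrays, the 18 ablation arrays, or all 33 for ES minus GA, for genes with a mean of at least 3. P values were adjusted by the Benjamini-Hochberg method across every gene tested. The fits were checked on simulated data with known changes. A description deposited with the values differs from the sample titles in 1 day of ES (2 in place of 3) and in the side of ablation, and the titles were followed. The 9 genes and all gene lists were chosen with earlier results of these data known, and the lists hold only genes with a row of their own. Comparisons of all transected groups with Sham-SCI and between days within an arm were added after the values were seen. All 9 genes are named, with up to 4 called genes of each list per comparison (otherwise the ends of a list's range), the 3 genes most like each in pattern, and a few picked with their values in view, which the text marks. Summed marker levels add 2 to the power of each log2 value, so the brightest genes of a list weigh most. Python 3.11.15 was used for tables (pandas 2.3.3, numpy 2.4.6) and figures (matplotlib 3.10.9). Alternatives were other filters, normalizations, priors and sample sets, the test across groups that the methods name, a block on replicate number, and 66 fits that leave out 1 array each.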

Additional observations from a re-analysis of the deposited data

How the results depend on the processing

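Of 162 values (9 genes in 18 comparisons), 13 were called. None of the 13 changed sign under any setting and 5 lost their call under at least 1. Of the 149 others, 20 were called under at least 1 setting and 64 changed sign under at least 1, with reported values of at most 1.14 in size. The count of the 9 genes called in SCI against Sham-SCI was 0, and it was 2 among the 50% most variable genes, with the 2 groups alone, with all 33 arrays in 1 fit and by the methods' test without adjustment, and 1 with arrays centred on the median. Over all genes these settings called 93 of 7228, 154 of 14459, 142 of 14453, 368 of 7228 and 76 of 14456. By the methods' test without adjustment the count was 1 for SCI-ES 7 days against SCI-ES 1 day, 3 for GA against Sham-GA at 3 days, 2 at 7 days and 2 for the mean GA effect. Over all genes it called 182 of 7228, 632 of 7226, 147 of 7226 and 287 of 7226. Within an experiment that test reuses 1 p per gene, with the fold minimum of each comparison, so these are not separate tests. Without both Sham-GA arrays that stand apart, chosen after seeing the data, the counts were 1 at 1 day, 5 at 3 days and 4 for the mean GA effect. Over all genes 694, 1978 and 1113 of 14447 were called there. For GA 3 days against GA 1 day the count was 1, and it was 2 among the 50% most variable genes, 0 with all 33 arrays in 1 fit and 0 with a replicate block. Over all genes these fits called 446 of 14451, 513 of 7226, 602 of 14453 and 307 of 14451. With 1 array left out at a time the count ran from 0 to 5 for GA at 3 days, 0 to 4 for the mean GA effect, 0 to 3 for all transected groups, 0 to 1 for GA 3 days against 1 day, 4 to 5 for GA 7 days against 1 day and 4 to 5 for Sham-GA 7 days against 1 day. It was 0 throughout for the other 12 comparisons. Leaving out 1 array also moved Mmp13 in SCI-ES 3 days against SCI from -1.94 to 0.12 (positive without SCI replicate 3), Mmp3 in GA 3 days against GA 1 day from -0.33 to 1.25 (negative without GA 3 days replicate 1), and Mmp9 in the GA effect at 7 days minus that at 1 day from -1.95 to 0.04 (positive without Sham-GA 7 days replicate 3). The cause of these shifts was not tested.

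Samples with the same replicate number did not deviate together on average (mean r of -0.037 over 30 spinal pairs and -0.047 over 45 ablation pairs). Single pairs ran from -0.412 to 0.668 and from -0.718 to 0.611. The numbers were not treated as pairs in the main fits, but a mean near 0 does not exclude pairing of some samples. The replicate block changed the count in no comparison except the 0 named above and Sham-GA 7 days against 1 day, where Adamts1 lost its call (adjusted p = 0.068) and 4 genes remained called. Over all genes 851 of 14451 were called in that comparison with the block. Groups of 3 arrays limit what can be seen, and a value that missed the threshold does not show that a gene did not change.

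Over all genes, the count called in SCI against Sham-SCI was 58, and 26 with the replicate block, 93 among the 50% most variable genes, 154 with the 2 groups alone and 368 by the methods' test without adjustment. For GA at 1 day it was 8, against 81 with all 33 arrays in 1 fit, 694 without both Sham-GA arrays and 445 by the methods' test. By that test it was 632 for GA at 3 days and 147 at 7 days, where limma called 0. With 1 array left out it ran from 5 to 65 in SCI against Sham-SCI (58), 0 to 27 for SCI-ES 1 day against SCI (0), 0 to 99 for SCI-ES 7 days against 1 day (0), 1 to 182 for GA at 1 day (8), 0 to 1286 at 3 days (0), 0 to 493 for the mean GA effect (0), 21 to 434 for all transected groups (243), 27 to 440 for GA 3 days against 1 day (446), 865 to 1264 for GA 7 days against 1 day (1243) and 455 to 902 for Sham-GA 7 days against 1 day (949).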
